A study of Mus musculus with 4 samples.

Results

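The glucocorticoid receptor and 6 genes tied to its action were followed across an ATAC-seq series of differentiating fat cells. The 7 genes are Nr3c1, which encodes the receptor, Hsd11b1, Fkbp5, Tsc22d3, Zbtb16, Dusp1 and Sgk1. Every peak whose summit lay within 50 kb of a transcription start site (TSS) of 1 of these genes was taken, and peaks of the 4 libraries that shared at least 1 bp were merged into 1 site. This gave 118 sites, of 75574 within 50 kb of the TSS of any protein-coding gene and 100608 in all.

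The cells were im-scWAT cells, preadipocytes from the stromal vascular fraction of subcutaneous white adipose tissue of 5-week-old mice that were immortalised in culture. They came from Jmjd1a +/+ mice (WT) or from Jmjd1a HY/HY mice (HY), in which the H3K9 demethylase JMJD1A is catalytically inactive. Nuclei were taken before differentiation (D0) or after it (D8). For D8, confluent cells were induced for 2 days with dexamethasone (2 µg/ml), a synthetic glucocorticoid. The same medium held insulin (5 µg/ml), the thyroid hormone T3 (1 nM), the PPARγ ligand rosiglitazone (0.5 µM), the phosphodiesterase inhibitor IBMX (0.5 mM) and indomethacin (0.125 mM). They were then kept for 6 days with insulin, T3 and rosiglitazone alone, so the D8 nuclei were collected 6 days after dexamethasone was withdrawn. There was 1 library per group, so each difference below compares libraries and not conditions, no test between groups was possible, and every interval covers counting error only. A single culture per genotype also means that genotype and culture cannot be told apart, and the fraction of cells that had differentiated cannot be told apart from accessibility per cell.

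Glucocorticoids enter the cell and bind a receptor that waits in the cytoplasm with heat-shock proteins and co-chaperones. The bound receptor moves to the nucleus and attaches to DNA, mostly at imperfect palindromes and often at chromatin that other factors such as AP-1 or C/EBP already keep open. In preadipocytes the hormone is a classical part of the differentiation cocktail, where it acts together with cyclic AMP to start the adipogenic programme. Nr3c1 is the receptor itself. Hsd11b1 encodes the enzyme that regenerates active glucocorticoid inside fat and liver cells. Fkbp5 encodes a co-chaperone that lowers receptor sensitivity, Tsc22d3 the leucine zipper protein GILZ, Zbtb16 the zinc finger transcription factor PLZF, Dusp1 a phosphatase of MAP kinases and Sgk1 a serum- and glucocorticoid-regulated kinase. Expression was not measured here.

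The lists held 41228 to 77994 peaks per library. The pileup at an average position of the genome, which is proportional to depth, was 0.659 (WT D0), 0.531 (WT D8), 0.708 (HY D0) and 0.494 (HY D8), so the D0 libraries were the deeper pair and gave the longer lists. At this background a peak needed a summit pileup of 5 overlapping tags, or 4 in HY D8. The label of the cells was checked on promoter peaks of marker genes. Of 5 adipocyte genes (Adipoq, Plin1, Fabp4, Cidec, Pparg), 5 had one in each D8 library and 1, Pparg, in each D0 library. Of 5 adipose progenitor genes (Pdgfra, Pdgfrb, Ly6a, Cd34, Dlk1), the WT D0 library had one at 5, the HY D0 library at 3 and each D8 library at 1, Pdgfrb. No leukocyte or epithelial marker had a promoter peak in any library, and of 3 endothelial markers Tek had one at D0 in both genotypes (23 and 19 tags), Pecam1 at D0 in WT (9 tags) and Cdh5 in no library. The part of these shifts between days in the results below was not tested.

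Windows at sites that differed between days are given first, in mm9 and on the plus strand, each with the strongest summit in the middle and 100 bp on either side. Capitals mark exact matches, on either strand, to the AP-1 consensus TGANTCA, to the C/EBP core (TTGC, 2 bases of any kind, AA) or to the receptor half-site AGAACA, and in the last sequence the whole of the closest match to the receptor palindrome. The printed windows were not picked to represent motif shares. AP-1 was held by 11 of the 43 member sites with a peak at D0 alone. Of the 12 sites that were open at D8 in both genotypes and at D0 in neither, 4 held the C/EBP core and 1 AP-1. The first 5 windows are examples from these 12 sites. They lay in introns of Fkbp5 (chr17:28561301-28561501) and Tsc22d3 (chrX:137099404-137099604 and chrX:137125696-137125896), between G0s2 and Lamb3 on the Hsd11b1 side (chr1:195104775-195104975), and in an intron of Lamb3 (chr1:195136725-195136925).
Fkbp5 intron: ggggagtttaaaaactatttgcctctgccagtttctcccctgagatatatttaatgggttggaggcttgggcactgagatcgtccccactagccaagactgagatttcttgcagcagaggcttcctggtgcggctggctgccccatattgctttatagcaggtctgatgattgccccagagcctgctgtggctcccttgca
Tsc22d3 intron, first: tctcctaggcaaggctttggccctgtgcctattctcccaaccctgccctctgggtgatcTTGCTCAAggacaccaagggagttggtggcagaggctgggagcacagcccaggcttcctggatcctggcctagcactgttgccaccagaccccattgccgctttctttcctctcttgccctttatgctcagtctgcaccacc
Tsc22d3 intron, second: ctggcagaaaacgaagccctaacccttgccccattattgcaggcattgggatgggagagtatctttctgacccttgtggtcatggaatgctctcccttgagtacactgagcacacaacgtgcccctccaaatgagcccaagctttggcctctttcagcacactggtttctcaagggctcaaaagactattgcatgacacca
Intergenic, upstream of Hsd11b1: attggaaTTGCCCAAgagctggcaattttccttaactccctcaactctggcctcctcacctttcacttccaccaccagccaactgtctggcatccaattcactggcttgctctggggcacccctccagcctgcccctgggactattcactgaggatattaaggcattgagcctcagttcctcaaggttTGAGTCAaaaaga
Lamb3 intron, upstream of Hsd11b1: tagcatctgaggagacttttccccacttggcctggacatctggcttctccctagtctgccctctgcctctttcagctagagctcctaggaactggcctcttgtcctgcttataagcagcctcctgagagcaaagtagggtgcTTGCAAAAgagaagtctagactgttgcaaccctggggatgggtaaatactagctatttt

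Next come sites with large differences between days. The Zbtb16 promoter (chr9:48644090-48644290) and a site upstream of Sgk1 (chr10:21577522-21577722) were higher at D8 in both genotypes. An Sgk1 intron (chr10:21657133-21657333) was lower, and an intergenic site upstream of Dusp1 (chr17:26670838-26671038) had peaks at D0 alone. The last sequence lay upstream of Fkbp5 in the promoter of E230001N04Rik (chr17:28659994-28660194), was open in all 4 libraries, and held the only palindrome match with at most 2 mismatches within 100 bp of the summit among the 118 sites.
Zbtb16 promoter: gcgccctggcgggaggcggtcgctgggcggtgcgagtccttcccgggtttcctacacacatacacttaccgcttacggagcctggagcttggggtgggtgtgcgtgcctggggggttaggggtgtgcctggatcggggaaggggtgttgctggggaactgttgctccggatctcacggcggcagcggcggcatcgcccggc
Upstream of Sgk1: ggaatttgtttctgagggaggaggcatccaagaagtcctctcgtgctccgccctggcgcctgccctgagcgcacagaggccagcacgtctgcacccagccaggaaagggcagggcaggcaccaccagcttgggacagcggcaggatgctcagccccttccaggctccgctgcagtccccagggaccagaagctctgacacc
Sgk1 intron: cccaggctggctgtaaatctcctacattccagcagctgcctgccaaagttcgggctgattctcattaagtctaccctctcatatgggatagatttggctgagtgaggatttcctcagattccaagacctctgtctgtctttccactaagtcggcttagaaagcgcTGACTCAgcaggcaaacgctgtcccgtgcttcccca
Upstream of Dusp1: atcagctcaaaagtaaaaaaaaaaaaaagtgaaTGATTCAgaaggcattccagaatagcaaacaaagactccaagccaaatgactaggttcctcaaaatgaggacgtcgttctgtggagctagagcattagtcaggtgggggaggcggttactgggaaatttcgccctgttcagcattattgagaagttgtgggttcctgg
Upstream of Fkbp5, palindrome: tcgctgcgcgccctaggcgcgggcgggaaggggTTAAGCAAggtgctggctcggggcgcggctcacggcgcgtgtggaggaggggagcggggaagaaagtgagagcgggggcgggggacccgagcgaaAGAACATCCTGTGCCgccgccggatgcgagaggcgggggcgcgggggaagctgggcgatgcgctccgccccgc

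The first question was how accessibility at these loci differs between preadipocytes and differentiated cells. The genes did not share a direction. Sites near Nr3c1, Hsd11b1 and Zbtb16 were more numerous at D8 than at D0 in both genotypes and sites near Dusp1, Sgk1 and Fkbp5 were fewer. Those near Tsc22d3 were more numerous in WT and fewer in HY, by 2 sites and by 1. The number of sites with a peak in WT D0, WT D8, HY D0 and HY D8 was 4, 11, 6 and 7 at Nr3c1, 5, 10, 6 and 10 at Hsd11b1 and 1, 5, 2 and 4 at Zbtb16. In the same order it was 14, 4, 14 and 6 at Dusp1, 12, 5, 13 and 8 at Sgk1, 20, 16, 26 and 15 at Fkbp5 and 9, 11, 11 and 10 at Tsc22d3. Over all 7 genes the libraries had 65, 62, 78 and 60 of the 118 sites. All sites near protein-coding genes were also fewer at D8, 30849 against 52476 in WT (0.588 of the D0 number) and 36670 against 57981 in HY (0.632). Against these, Fkbp5 had 0.800 of its D0 number in WT and 0.577 in HY, Sgk1 0.417 and 0.615, and Dusp1 0.286 and 0.429.

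**Figure D1:**
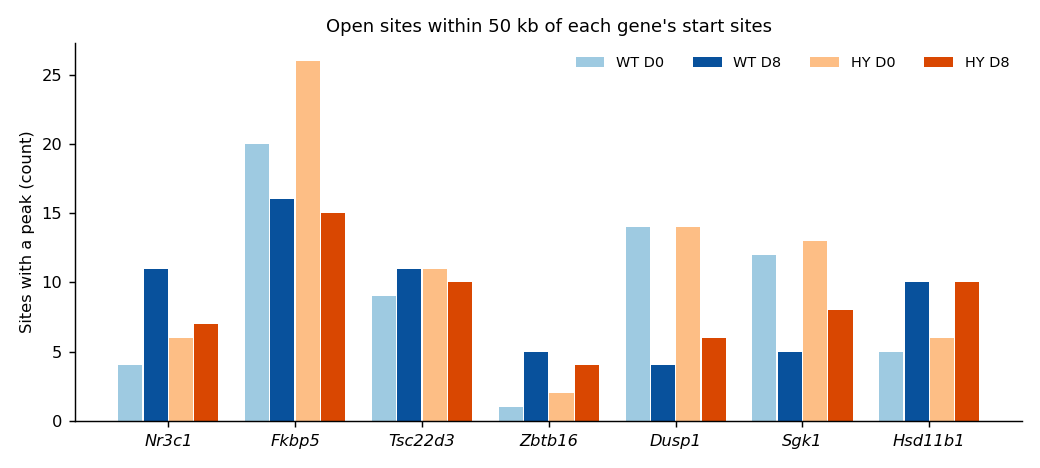
Bars give the number of merged sites with a peak (vertical axis, count, from 0) within 50 kb of a TSS of each gene, for WT D0, WT D8, HY D0 and HY D8. Dusp1 had 14 sites in each D0 library and 4 (WT) or 6 (HY) at D8, while Hsd11b1 had 5 and 6 at D0 and 10 in each D8 library.

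In WT, 28 of the 93 member sites with a peak on either day had a peak at D8 only, which is 30.1% (95% interval 21.0% to 40.5%). Over all sites near protein-coding genes the share was 12.2%. Peaks at D0 only were found at 31 of the 93 sites, or 33.3% (23.9% to 43.9%), below the 48.4% of all sites. With a −log10 q of at least 5 in every list this share was 37.3% (25 of 67 sites) against 48.3%, and its 95% interval included the share of all sites. Of the 34 sites shared between days, 2 had a depth-scaled pileup at least 2-fold higher at D8 (5.88%, against 4.15% of all shared sites) and 2 at least 2-fold lower (5.88%, against 12.7%). Depth-scaled pileup is the pileup at the summit divided by the background rate of its library.

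In HY, 21 of 99 sites had a peak at D8 only (21.2%, 13.6% to 30.6%), and over all sites the share was 13.6%, at the edge of that interval. Peaks at D0 only were found at 39 sites (39.4%, 29.7% to 49.7%), against 45.4% of all sites. Of 39 shared sites, 6 were at least 2-fold higher at D8 (15.4%, against 4.89%) and 6 at least 2-fold lower (15.4%, against 14.7%). As fold over the local background the counts were 1 (2.56%, against 1.19% of all shared sites) and 2 (5.13%, against 8.79%), and in WT 1 (2.94%, against 1.03%) and 2 (5.88%, against 5.01%). On that scale the HY share of higher sites rests on 1 site (interval 0.0649% to 13.5%), too few to tell from all shared sites. The sites are not replicates of a condition, since neighbouring sites share a locus and a library, and the intervals do not cover that. The direction of the WT and HY shares against all sites was the same for D8-only and for D0-only peaks. The HY D8-only share was closer to all sites within 25 kb (15.3%, 7.88% to 25.7%, against 13.4%) and with only sites whose nearest TSS belonged to the gene (16.4%, 8.49% to 27.5%, against 13.6%), so it was not above all sites beyond counting error there. When every list was shortened to the length of the shortest, which removes the weakest D0 peaks, the D8-only share of member sites was 44.7% in WT and 44.8% in HY beside 25.5% (WT) and 10737 of 42926 sites (HY) over all sites. The D0-only share was then 18.4% (10.5% to 29.0%) and 19.4% (10.8% to 30.9%), beside 27.4% and 26.3%, which both intervals include.

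**Figure D2:**
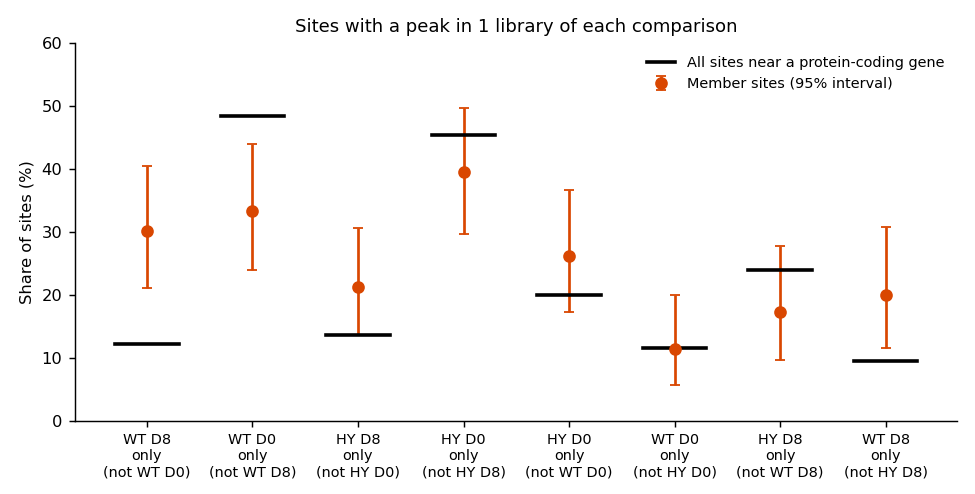
Points give the share of member sites (%) with a peak in 1 library and not in the other of each comparison, with 95% exact binomial intervals, and black lines the same share over all sites within 50 kb of a protein-coding TSS. The WT D8 only point lies at 30.1% above a line at 12.2%, and the WT D0 only point at 33.3% below a line at 48.4%.

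By combination of libraries, 28 sites had a peak in all 4, 12 at D8 in both genotypes and at D0 in neither, and 17 at D0 in both and at D8 in neither. These are 23.7%, 10.2% and 14.4% of the member sites, and over all sites the shares were 28.0%, 6.10% and 22.7%. The 12 sites open only at D8 had WT pileups of 8 to 30 tags and HY pileups of 8 to 29. They were spread over Hsd11b1 (4), Nr3c1 (3), Fkbp5 (2), Tsc22d3 (2) and Dusp1 (1). The 17 sites open only at D0 had WT pileups of 6 to 47 tags and HY pileups of 7 to 45, and 8 of them belonged to Dusp1, 5 to Fkbp5, 2 to Sgk1 and 1 each to Tsc22d3 and Hsd11b1. Counting sites of either genotype, 30 (25.4%, against 13.3% of all sites) had a peak at D8 alone and 43 (36.4%, against 46.4%) at D0 alone. The median distance to the nearest TSS of the gene was 20.2 kb for the former, 10.0 kb for the latter and 4.85 kb for the 28 sites open throughout. No D8-alone site was a promoter of any gene (upper limit 11.6%, against 8.37% of all D8-alone sites), 5 of the D0-alone sites were (11.6%, against 8.96%), and so were 12 of the sites open throughout (42.9%, against 49.3%).

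At the receptor gene 2 promoter sites were open in all 4 libraries, and the D8 libraries held further sites in introns and upstream. Nr3c1 lies on the minus strand of chromosome 18 and has 8 annotated start sites. Its strongest promoter site (chr18:39650472-39651369) had pileups of 54 (WT D0), 43 (WT D8), 54 (HY D0) and 45 (HY D8). These are close once scaled to depth, with a WT ratio of D8 to D0 of 0.988 (0.646 to 1.50) and an HY ratio of 1.19 (0.785 to 1.81). As fold over the local background these were 0.767 and 0.921, so the HY direction turned. In the same order, the promoter site beside it (chr18:39649398-39650265) had 25, 32, 35 and 32 tags, with ratios of 1.59 (0.912 to 2.80) for WT and 1.31 (0.785 to 2.18) for HY, or 1.19 and 0.990 as fold over the local background. Another (chr18:39648862-39649166) lacked a peak only in WT D0 and had 19, 24 and 22 tags in the others. The most upstream one (chr18:39651561-39651650) was called in HY D0 alone, with 24 tags. The intervals of the ratios at the 2 promoter sites open throughout included 1. Distances here and below are from the strongest summit to the nearest annotated TSS of the gene.

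Of the Nr3c1 sites open at D8 in both genotypes and at D0 in neither, the first (chr18:39601994-39602352), in an intron 44.6 kb downstream of the nearest TSS, had 17 tags in WT D8 and 13 in HY D8. The second (chr18:39618592-39618777), in an intron at 28.2 kb, had 11 and 11, and the third (chr18:39684787-39685024), intergenic and 34.0 kb upstream, had 8 and 8. These are low pileups, and a pileup below the calling limit at D0 is not known. A further 4 sites were called in WT D8 alone, with 6, 12, 15 and 8 tags, of which 2 lay in introns 5.04 kb and 3.53 kb downstream of a TSS. At D8, therefore, 4 of the 11 Nr3c1 sites had a peak in WT only (36.4%, against 9.48% of all sites) and none in HY only (against 23.9%). Between days, 8 of 12 sites had a peak at D8 only in WT (66.7%, 34.9% to 90.1%, against 12.2%) and 3 of 9 in HY (33.3%, 7.49% to 70.1%, against 13.6%). One intronic site open throughout (chr18:39620567-39620775) had 12, 5, 11 and 7 tags and ratios between days of 0.517 and 0.911, whose intervals included 1.

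Summed over all its sites, the depth-scaled pileup around Nr3c1 was 147 (WT D0), 426 (WT D8), 256 (HY D0) and 397 (HY D8). A site with no peak adds nothing to this sum, so it follows the number of sites called (4, 11, 6 and 7). Of 22218 protein-coding genes the 3 with the nearest profile over the 4 libraries were Gm10008 (distance 0.119 on the log2 scale), Mmd (0.245) and Trappc5 (0.361). Gm10008 neighbours Nr3c1 and shares sites with it. Mmd had sums of 164, 409, 252 and 449, and Trappc5 of 162, 382, 211 and 372.

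**Figure D3:**
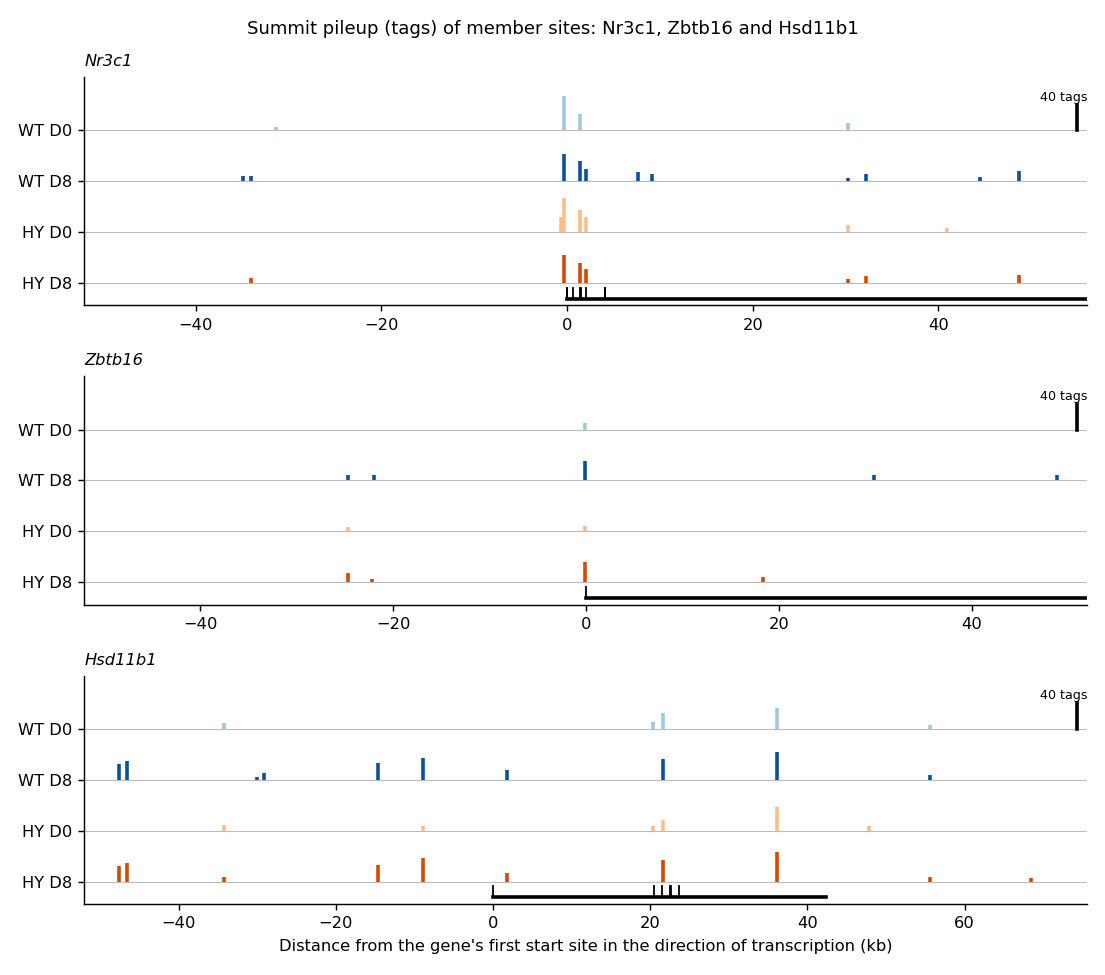
Each vertical line is the highest summit pileup (tags, scale bar 40 tags) of a site in 1 library, plotted against its distance in kb from the first annotated TSS of Nr3c1, Zbtb16 or Hsd11b1, with the gene as a black bar and its start sites as ticks. The Zbtb16 promoter went from 11 and 8 tags at D0 to 31 and 32 at D8, and the Hsd11b1 region upstream of the gene held peaks of 25 to 30 tags in both D8 libraries where neither D0 library had one.

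Hsd11b1, which supplies active hormone to the receptor, had 10 sites with a peak in each D8 library and 5 (WT) and 6 (HY) at D0, but most of its sites lay closer to other genes. It is on the minus strand of chromosome 1 with 6 annotated start sites. Its promoter site (chr1:195068413-195068882) had 25 (WT D0), 32 (WT D8), 17 (HY D0) and 34 (HY D8) tags. The D8 library was the higher one in both genotypes, with a WT ratio of 1.59 (0.912 to 2.80) and an HY ratio of 2.86 (1.56 to 5.47). As fold over the local background the WT ratio was 0.964, with the direction turned, and the HY ratio 1.26. The background around the site was also higher at D8 (1.69 tags in WT, 1.80 in HY) than at D0 (1.04 and 0.819). An intronic site 12.5 kb downstream (chr1:195053921-195054162), where 1600010F14Rik overlaps, had 33, 44, 37 and 46 tags. Its window holds a tandem repeat of 112 bp with the 6-base unit TTAGGG of telomeres, so tags there may come from other copies of the repeat, which was not tested. It had ratios of 1.65 (1.03 to 2.68) and 1.78 (1.13 to 2.82), or 1.21 and 1.14 as fold over the local background. A weak promoter site (chr1:195069885-195069998) had 10 tags in WT D0 and 7 in HY D0 and no peak at D8.

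Of the sites around Hsd11b1, 4 had peaks at D8 in both genotypes and at D0 in neither. One was in an intron of the gene 1.80 kb downstream of a TSS (chr1:195088236-195088644), with 16 tags in WT D8 and 13 in HY D8. The other three were stronger and lay upstream, at 14.6 kb (chr1:195104410-195104959, 26 and 27 tags), 46.6 kb (chr1:195136725-195137296, 30 and 29 tags) and 47.7 kb (chr1:195137843-195138121, 25 and 25 tags). The nearest TSS of the first of these was that of G0s2, which encodes an inhibitor of lipolysis, and the other two were in an intron of Lamb3, a laminin gene. A site over an exon of G0s2 (chr1:195098727-195099410) had no peak in WT D0 and 34 (WT D8), 7 (HY D0) and 37 (HY D8) tags in the others. Between days, 7 of 12 Hsd11b1 sites had a peak at D8 only in WT (58.3%, 27.7% to 84.8%, against 12.2% of all sites) and 6 of 12 in HY (21.1% to 78.9%, against 13.6%). For 10 of the 14 Hsd11b1 sites another gene had the nearest TSS, and which gene a site acts on was not measured. In the printed windows the site 14.6 kb upstream held 1 AP-1 and 1 C/EBP match and the one at 46.6 kb held 1 C/EBP match.

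Zbtb16, which glucocorticoids induce in many cell types, had the promoter site with the highest D8 to D0 ratio of depth-scaled pileup among the promoter sites open in all 4 libraries, in both genotypes. It is on the minus strand of chromosome 9 with 1 annotated TSS, and the promoter site (chr9:48643763-48644705) had its strongest summit 140 bp upstream of it. Pileups were 11 (WT D0), 31 (WT D8), 8 (HY D0) and 32 (HY D8). Both D8 libraries were above both D0 libraries. The WT ratio was 3.50 (1.71 to 7.71) and the HY ratio 5.73 (2.59 to 14.4). The local background at this peak was 0.659 (WT D0), 2.87 (WT D8), 0.708 (HY D0) and 3.00 (HY D8) tags, so it was also higher at D8, and the ratio of fold enrichments over local background was 1.14 for WT and 1.57 for HY. On that scale the WT ratio was below those of the main Sgk1 promoter (1.24) and an Nr3c1 promoter site (1.19). The other 6 Zbtb16 sites were weak, with 6 to 15 tags, and all had a peak at D8. One of them (24.7 kb upstream) had 9 (WT D8), 7 (HY D0) and 15 (HY D8) tags over local backgrounds of 0.693, 0.708 and 0.657, and the remaining 5 were each called in 1 D8 library. Between days, 4 of 5 sites had a peak at D8 only in WT (28.4% to 99.5%, against 12.2% of all sites) and 2 of 4 in HY (6.76% to 93.2%, against 13.6%). No site had one at D0 only, with upper limits of 52.2% (WT) and 60.2% (HY) that include the 48.4% and 45.4% of all sites.

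Fkbp5 had the most sites, 33, and the intervals of its shares open on 1 day included the shares of all sites. The gene is on the minus strand of chromosome 17 with 5 annotated start sites. Its main promoter (chr17:28622888-28623372) was open in every library with 46 (WT D0), 42 (WT D8), 56 (HY D0) and 41 (HY D8) tags, a WT ratio of 1.13 (0.728 to 1.76) and an HY ratio of 1.05 (0.683 to 1.60). As fold over the local background these were 0.910 and 0.836, with the direction turned. The more distal promoter (chr17:28654847-28655398) had 24, 19, 25 and 17 tags and ratios of 0.983 and 0.974. Neither promoter differed between days beyond counting error. In WT 3 of 23 sites had a peak at D8 only (13.0%, 2.78% to 33.6%, against 12.2% of all sites) and 7 at D0 only (30.4%, 13.2% to 52.9%, against 48.4%). In HY 5 of 31 had one at D8 only (16.1%, 5.45% to 33.7%, against 13.6%) and 16 at D0 only (51.6%, 33.1% to 69.8%, against 45.4%).

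Among the Fkbp5 intronic sites, 2 were open at D8 in both genotypes and at D0 in neither. The site 4.17 kb downstream of a TSS (chr17:28561203-28561604) had 22 tags in each D8 library, and the one at 2.83 kb (chr17:28575749-28575943) had 14 in WT and 15 in HY. Of the sites open at D0 alone in both, the strongest were an intronic one at 8.66 kb (chr17:28556806-28556999, 24 tags in WT and 32 in HY), one 5.20 kb upstream in the promoter of E230001N04Rik (chr17:28659541-28659768, 28 and 26 tags) and one in an intron near an annotated 7SK copy (chr17:28584863-28585102, 17 and 26 tags). Among sites open throughout, the lowest HY ratios were 10.6 kb upstream (21, 11, 28 and 9 tags, ratios of 0.650 and 0.460) and 4.94 kb downstream (14, 7, 16 and 6 tags, ratios of 0.621 and 0.537), and the intervals of these ratios reached 1.00 or above. The highest was in an intron at 4.70 kb (chr17:28649656-28650012), with 14, 16, 12 and 24 tags, a WT ratio of 1.42 (0.649 to 3.14) and an HY ratio of 2.86 (1.38 to 6.29). The site with the receptor palindrome had 23, 14, 34 and 13 tags and ratios of 0.756 (0.359 to 1.53) and 0.548 (0.265 to 1.06), so the D8 value was the lower one in both genotypes, with intervals that included 1.

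At Tsc22d3 the promoters and the strongest distal site were open in all 4 libraries, apart from 1 small promoter site. The gene lies on the minus strand of chromosome X with 6 annotated start sites. A distal intergenic site 22.2 kb downstream (chrX:137054613-137055524) had 43 (WT D0), 44 (WT D8), 44 (HY D0) and 38 (HY D8) tags, with a WT ratio of 1.27 (0.815 to 1.98) and an HY ratio of 1.24 (0.780 to 1.95), the latter 0.977 as fold over the local background. The promoter site at its internal start sites (chrX:137077179-137078085) had 29, 22, 25 and 27 tags and the one at its first TSS (chrX:137135350-137135534) had 12, 13, 12 and 10. The WT ratio at the former was 0.942 (0.516 to 1.70) and the HY ratio 1.55 (0.864 to 2.78), intervals that include 1. At the latter they were 1.34 (0.566 to 3.22) and 1.19 (0.462 to 3.01). As fold over the local background these were 0.881 and 0.694, with the direction turned. The small promoter site (chrX:137135014-137135190) was called in HY D0 alone with 9 tags. In WT 4 of 13 sites had a peak at D8 only (30.8%, 9.09% to 61.4%, against 12.2% of all sites). At D0 only there were 2 (15.4%, 1.92% to 45.4%, against 48.4%). In HY 3 of 14 had one at D8 only (21.4%, 4.66% to 50.8%, against 13.6%) and 4 at D0 only (28.6%, 8.39% to 58.1%, against 45.4%). The intronic sites at 16.4 kb upstream (chrX:137099372-137099658, 12 and 14 tags) and 9.40 kb downstream (chrX:137125616-137126091, 9 and 8 tags) were open at D8 only in both genotypes, and one 24.7 kb upstream (chrX:137107625-137107833) at D0 only, with 6 tags in WT and 9 in HY. The cultures differed in peaks on chromosome Y (1 in each WT library, 7 at D0 and 6 at D8 in HY), and shared sites on chromosome X had a median HY to WT ratio of 1.02 at D0 and 1.07 at D8, near the 1.06 and 1.11 of all shared sites. The part of the chromosome Y difference between the cultures in the genotype comparison, and at the X-linked Tsc22d3, was not tested.

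Around Dusp1 most sites had a peak at D0 only, while the promoter was open in all 4 libraries. The gene is short, on the minus strand of chromosome 17, with 3 annotated start sites. The promoter site (chr17:26644920-26646249) had 57 (WT D0), 49 (WT D8), 60 (HY D0) and 45 (HY D8) tags and a D8 to D0 ratio of 1.07 in both genotypes (WT interval 0.713 to 1.59, HY interval 0.713 to 1.61). A promoter site over an exon (chr17:26644349-26644628) had no peak in WT D0 and 21, 34 and 23 tags in the others. In WT 12 of 16 sites had a peak at D0 only (75.0%, 47.6% to 92.7%), where all sites gave 48.4%, and in HY 10 of 16 (62.5%, 35.4% to 84.8%), where all sites gave 45.4%. Peaks at D8 only were found at 2 of 16 sites in each genotype (12.5%), where all sites gave 12.2% and 13.6%. The intervals included the shares of all sites.

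Of the Dusp1 sites open at D0 in both genotypes and at D8 in neither, the strongest were 1.14 kb upstream (chr17:26646473-26646700, 47 tags in WT and 43 in HY) and 25.5 kb upstream (chr17:26670717-26671292, 44 and 45 tags), followed by one 20.2 kb downstream (chr17:26624285-26624634, 15 and 14 tags). The local background at the first was 9.86 tags (WT) and 10.7 (HY) at D0, and at the promoter next to it 8.40 and 7.44 at D8, so a D8 pileup there needed to be well above the usual limit to be called. A site 21.4 kb upstream (chr17:26666588-26668031) was open in all 4 libraries with 58 (WT D0), 12 (WT D8), 53 (HY D0) and 21 (HY D8) tags, a WT ratio of 0.257 (0.126 to 0.483) and an HY ratio of 0.567 (0.325 to 0.957). Both D8 libraries were below both D0 libraries. The site is 1444 bp wide and held 2, 3, 1 and 3 peaks in these libraries, of which the highest was taken for each. Relative to the local background, which was 6.75 and 8.09 tags at D0 and 1.91 and 2.02 at D8, the ratios were 0.587 and 1.22, so in HY the direction depends on that background. In contrast, 1 site 17.1 kb upstream (chr17:26662354-26662631) was open at D8 only, with 14 tags in WT and 10 in HY.

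At Sgk1 the main promoter was open in all 4 libraries, and 1 distal site that was open throughout was stronger at D8. The gene is on the plus strand of chromosome 10 and has 11 annotated start sites. The main promoter (chr10:21713713-21714760) had 70 (WT D0), 52 (WT D8), 70 (HY D0) and 49 (HY D8) tags, the highest pileups of any member site, a WT ratio of 0.922 (0.631 to 1.34) and an HY ratio of 1.00 (0.681 to 1.46), or 1.24 and 1.17 as fold over the local background, where the WT direction turned. A promoter site next to it (chr10:21712947-21713128) had 25, 17, 32 and 15 tags, and another, at the most distal TSS (chr10:21601831-21602146), was called in HY D0 alone with 12.

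The Sgk1 site 24.4 kb upstream (chr10:21577503-21577900), intergenic between Gm6846 and Sgk1, had 8 (WT D0), 33 (WT D8), 8 (HY D0) and 17 (HY D8) tags. Its WT ratio was 5.12 (2.32 to 12.8), the highest of the 28 sites open throughout, and its HY ratio 3.04 (1.24 to 8.15). As fold over the local background these were 2.86 and 1.87. The opposite was seen in an intron 8.96 kb downstream of a TSS (chr10:21656817-21657436), with 39, 8, 37 and 10 tags and ratios of 0.255 (0.103 to 0.553) and 0.387 (0.172 to 0.794), or 0.397 and 0.490 as fold over the local background. An intronic site 4.76 kb upstream of an internal TSS (chr10:21642668-21643852) had 37, 15, 45 and 13 tags and ratios of 0.503 (0.257 to 0.939) and 0.414 (0.205 to 0.780). The local background at the latter was also lower at D8 (0.927 tags in WT, 0.666 in HY) than at D0 (2.56 and 3.35), which these ratios do not take into account. In depth-scaled pileup the D8 libraries were thus the lower ones at both introns. The sites 42.8 kb upstream (chr10:21558896-21559639, 30 and 31 tags) and 39957 bp downstream (chr10:21756172-21756387, 9 and 12 tags) were open at D0 only in both genotypes. In WT 7 of 12 sites had a peak at D0 only (58.3%, 27.7% to 84.8%) and in HY 5 of 13 (38.5%, 13.9% to 68.4%), intervals that include the 48.4% and 45.4% of all sites. No site had a peak at D8 only, of 12 in WT (upper limit 26.5%, against 12.2% of all sites) and 13 in HY (24.7%, against 13.6%).

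**Figure D4:**
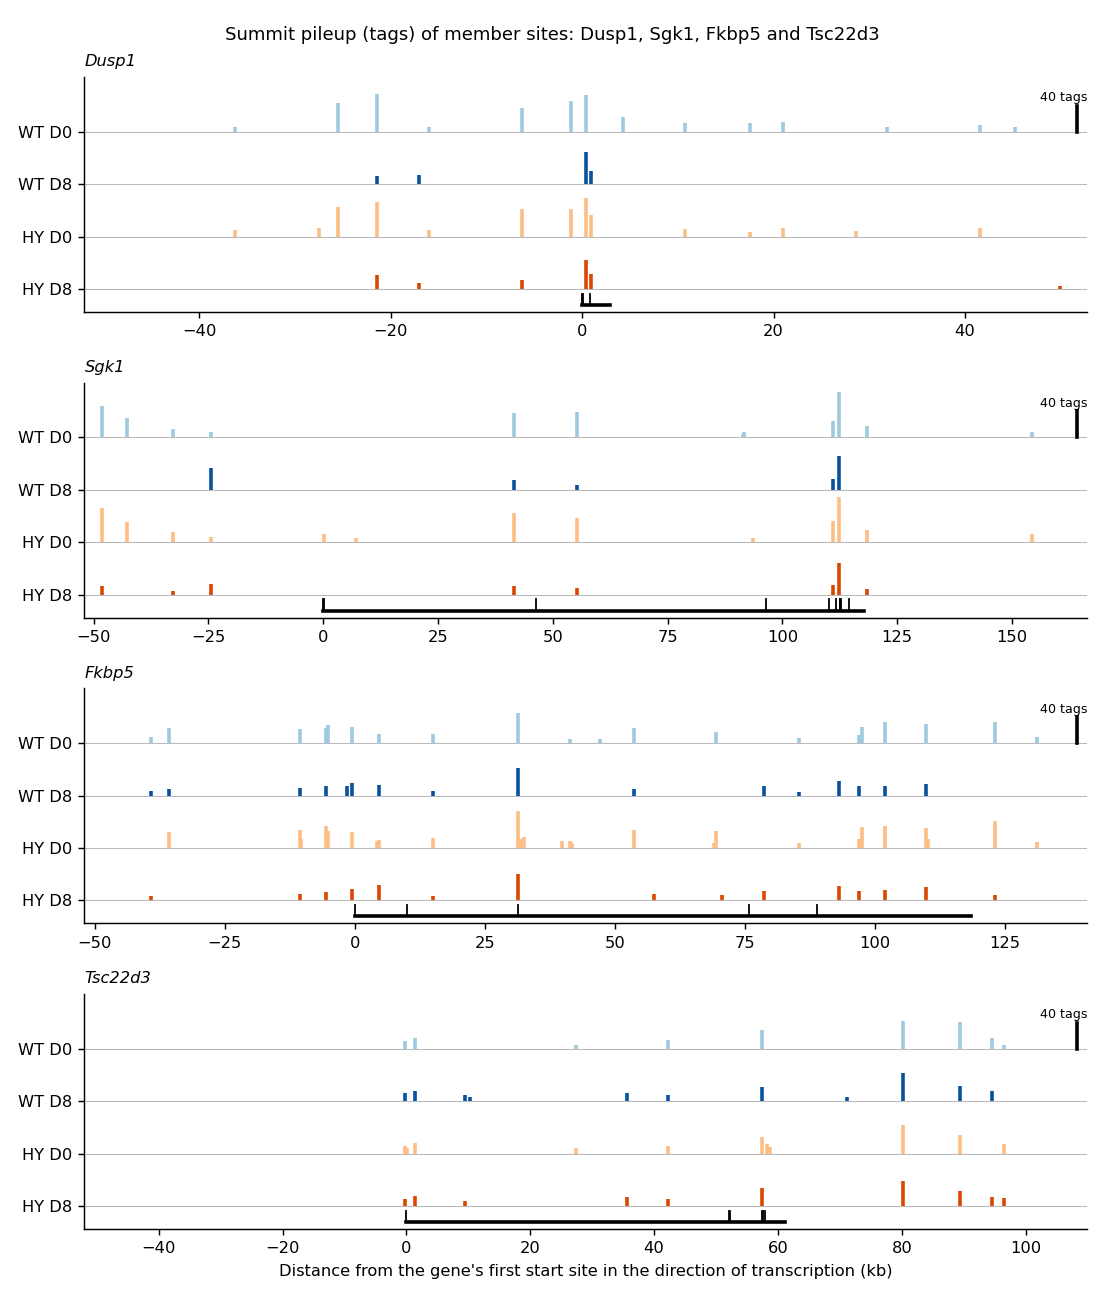
Each vertical line is the highest summit pileup (tags, scale bar 40 tags) of a site in 1 library, plotted against its distance in kb from the first annotated TSS of Dusp1, Sgk1, Fkbp5 or Tsc22d3, with the gene as a black bar and its start sites as ticks. The Dusp1 promoter had 45 to 60 tags in all 4 libraries while 8 sites around it had peaks at D0 in both genotypes and none at D8.

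**Figure D5:**
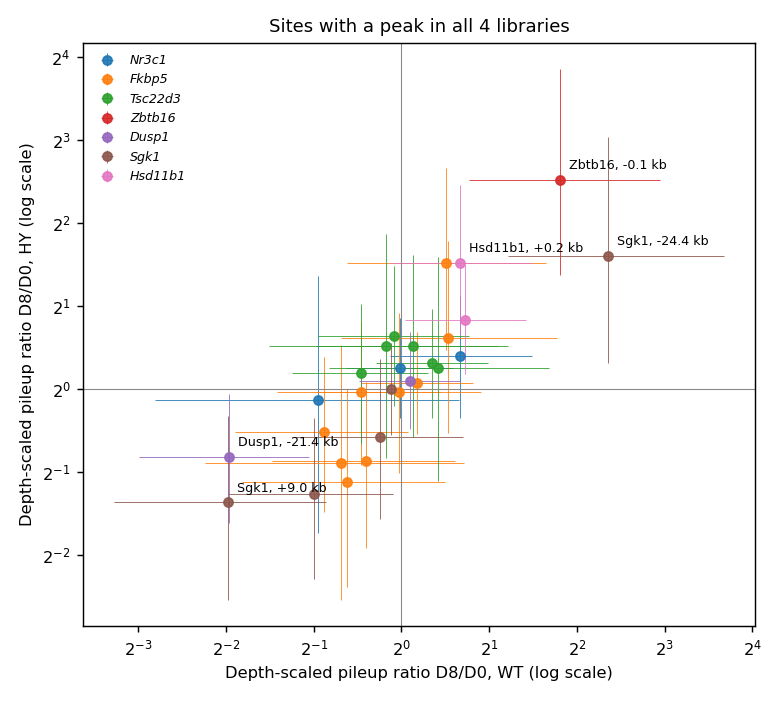
Each point is 1 of the 28 member sites with a peak in all 4 libraries, at its depth-scaled D8 to D0 pileup ratio in WT (horizontal, log scale) and HY (vertical, log scale), with 95% counting intervals and the distance from the nearest TSS of the gene for 5 of them. The Zbtb16 promoter (3.50 and 5.73) and the Sgk1 site 24.4 kb upstream (5.12 and 3.04) lie at the upper right, and the Sgk1 site 8.96 kb downstream (0.255 and 0.387) at the lower left.

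The other comparison was between cells with active and inactive JMJD1A. At D0, 23 of 88 member sites had a peak in HY only (26.1%, 17.3% to 36.6%), against 19.9% of all sites, and 10 in WT only (11.4%, 5.59% to 19.9%), against 11.5%. Of 55 shared sites, 1 was at least 2-fold higher in HY (1.82%, against 1.88%) and none at least 2-fold lower, against 1.17% of all. The intervals of both D0 shares included the share of all sites. The HY D0 list was the longest and its library the deepest. With lists of equal length the order turned, with 8.70% HY only (2.42% to 20.8%, against 14.4% of all sites) and 19.6% WT only (9.36% to 33.9%, against 13.1%).

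At D8, 13 of 75 member sites had a peak in HY only (17.3%, 9.57% to 27.8%), against 23.9% of all sites, and 15 in WT only (20.0%, 11.6% to 30.8%), against 9.48%. Of the 47 shared sites none was at least 2-fold higher or lower in HY, where 1.54% and 0.463% of all shared sites were. The sites with a WT peak only at D8 were weak, with a median of 8.00 tags. By combination, 12 sites (10.2%) had a peak in WT D8 alone, against 2.35% of all sites, with 5 to 15 tags, and they lay at Nr3c1 (4), Zbtb16 (3), Hsd11b1 (2), Tsc22d3 (2) and Fkbp5 (1). When peaks had to reach a −log10 q of 5 and were looked up in the full list of the other genotype, the WT-only share of member sites at D8 was 7.69% (2.54% to 17.0%, against 3.61% of all sites) and the HY-only share 7.46% (2.47% to 16.6%, against 8.52%). With lists of equal length, 18 of 72 sites were WT only (15.5% to 36.6%, against 14.5% of all sites) and 13.9% HY only (6.87% to 24.1%, against 16.5%), and with peaks shared at 50% coverage the WT-only share was 22.6% (14.2% to 33.0%, against 13.4%). With a −log10 q of at least 5 in every list it was 8 of 50 sites (7.17% to 29.1%, against 11.3%) and within 25 kb 15.7% (7.02% to 28.6%, against 9.29%), intervals that include the share of all sites. No member site had a peak on both days in 1 genotype and on neither day in the other, patterns that were also rare over all sites (0.926% in HY alone and 0.299% in WT alone).

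Sequence at the sites was then compared with that of all sites near protein-coding genes. The receptor palindrome (AGAACA, 3 bases of any kind, TGTTCT) with at most 2 mismatches in its 12 fixed bases was found within 100 bp of the summit at 1 of 118 member sites, or 0.847% (0.0215% to 4.63%), and at 1.39% of all sites. The 1 match lay at chr17:28660122-28660136, its centre 35 bp from the summit, with the substitutions T13G and T15C counted from 1 at the first base of the palindrome. With at most 3 mismatches the share was 11.9% beside 10.5% of all sites, and within 250 bp of the summit the share with at most 2 mismatches was 6.78% (2.97% to 12.9%) beside 3.83%, so the order against all sites turned in both. Of the 30 member sites open at D8 alone none had a match with at most 2 mismatches within 100 bp (upper limit 11.6%), too few sites to tell from the 2.03% of all D8-alone sites. The second Tsc22d3 window printed above had 3 mismatches (A3C, T10G and G11T). The half-site was found at 14.4% of member sites and 14.1% of all sites. These windows match letters and do not show binding, and receptor binding was not measured.

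The AP-1 consensus was found at 25 member sites (21.2%, 14.2% to 29.7%) and at 19.8% of all sites, and the C/EBP core at 14 (11.9%, 6.64% to 19.1%) and at 10.5%. Among sites with a peak at D8 alone, the C/EBP core was present at 7 of 30 member sites (23.3%, 9.93% to 42.3%) beside 22.8% of all such sites, and AP-1 at 8 of 30 (26.7%, 12.3% to 45.9%) beside 7.05%. Among sites with a peak at D0 alone, C/EBP was present at 3 of 43 (6.98%, 1.46% to 19.1%) beside 8.21% and AP-1 at 11 of 43 (25.6%, 13.5% to 41.2%) beside 26.8%. AP-1 at the D8 sites was the only 1 of these 4 shares whose interval did not include the share of all sites, and it rests on 8 sites. Of these, 7 had a peak in 1 D8 library alone, with 5 to 15 tags (7 of 18 such sites, against 7.11% of all such sites). Among the 12 sites open at D8 in both genotypes 1 held AP-1 (8.33%, 0.211% to 38.5%, against 6.98%). The difference thus lay in peaks that were each called in only 1 of the D8 libraries, some in WT and some in HY.

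Other genes of the pathway were counted as 2 lists. A list of 14 genes for receptor chaperones, coregulators, the mineralocorticoid receptor and hormone-converting enzymes had 184 sites. In WT, 12.7% (7.80% to 19.1%) of those with a peak on either day had it at D8 only and 34.0% (26.5% to 42.2%) at D0 only, and in HY 16.7% and 35.7%, where all sites gave 12.2% and 48.4% in WT and 13.6% and 45.4% in HY. Of these genes 8 had at least 1 site open at D8 only in both genotypes (57.1%, against 32.2% of protein-coding genes with any site) and 10 at least 1 at D0 only (71.4%, against 75.9%). These shares grow with the number of sites a gene has, and the median number was 11.5 in the list and 8 over those protein-coding genes. Hsd11b2, which inactivates the hormone, had 4 of the former and 1 of the latter among its 18 sites. Hsp90ab1, a chaperone gene, had 1 of the former and 5 of the latter among 17. Over all sites 6.10% were open at D8 only in both genotypes and 22.7% at D0 only.

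A list of 20 further targets had 282 sites, with a WT D8-only share of 22.5% (17.3% to 28.4%), an HY D8-only share of 23.0% (17.9% to 28.7%) and D0-only shares of 31.2% and 29.8%. Among the sites shared between days 14 of 107 in WT and 17 of 117 in HY were at least 2-fold higher at D8, and 2 and 6 at least 2-fold lower. Of all shared sites 4.15% and 4.89% were higher and 12.7% and 14.7% lower, and over all sites the D8-only shares were 12.2% and 13.6% and the D0-only shares 48.4% and 45.4%. The 2-fold counts of this list use depth-scaled pileup and were not repeated as fold over the local background. On that scale 1.03% (WT) and 1.19% (HY) of all shared sites were higher, and 5.01% and 8.79% lower. The genes with the most sites open at D8 only in both genotypes were Cebpb, an early adipogenic transcription factor, Angptl4, an inhibitor of lipoprotein lipase, and Pdk4, a kinase that holds back pyruvate oxidation, with 4 each, of 21, 20 and 11 sites. Klf15 and Ddit4 had 3 each, of 18 and 25. Anxa1, which encodes an anti-inflammatory annexin, had 10 of its 18 sites open at D0 only and 1 at D8 only, and Pik3r1 had 5 and 2 of 24. Cebpb also had 4 open at D0 only. Over all sites the shares open on 1 day in both genotypes were 6.10% (D8) and 22.7% (D0), and these genes were picked for their high counts.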

How the data were processed

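ATAC-seq, which reads accessible DNA by the cuts of a transposase, was done on nuclei of im-scWAT cells of 4 groups with 1 library each. The authors aligned reads to mm9 with Bowtie2, processed them with SAMtools and Picard, and deposited 1 peak list per library (versions not given in the sources used here). For ATAC-seq peaks they refer to their ChIP-seq procedure, which names HOMER for JMJD1A and MACS3 for transcription factors, without saying which applied. The lists have the narrowPeak layout of MACS, and its formulas fit them (below). The treatment of transposase offsets was not given either. The deposited peak lists give each peak a score, the fold enrichment ratio at the summit over the local background, and −log10 p and −log10 q values, all made by the authors' peak caller.

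From the fold enrichment and −log10 p of each peak, the summit pileup and local background were solved as a Poisson upper tail (100% of peaks within 0.002, against 0.883% to 1.49% with p values shuffled). The paper gives an approximate number of reads per sample, but the depth of each library after filtering is not known. The lowest local background of a library served as its relative depth, and the depth-scaled pileup is the summit pileup divided by it. Where a library had several peaks in 1 site the highest pileup was taken, so the summits compared between libraries can lie at different positions. A ratio of at least 2 or at most 0.5 counted as a difference in size. Where a library had no peak, the pileup is not known. Intervals are 95% exact binomial for shares and exact conditional for pileup ratios. No test between groups and no paired fit was made.

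Start sites came from GENCODE M1 (NCBIM37, which is mm9), and a promoter site had a summit from 1000 bp upstream to 100 bp downstream of a TSS. Sequences were read from the NCBIM37 genome. Analyses used Python 3.11.15, NumPy 2.4.6, pandas 2.3.3, SciPy 1.17.1 and matplotlib 3.10.9, and the solver and site counts were tested on simulated data. The genes, lists and rules were chosen with earlier results of these data known. Named sites were promoter sites, up to 3 sites per gene with the highest pileup among those open only at D8 or only at D0 in both genotypes, and the shared sites furthest from a ratio of 1 in the same direction. Other sites and the printed windows outside this rule were singled out after their values were seen. The genes named from the pathway lists were those with the most sites open at D8 only or at D0 only in both genotypes (1 of them is not reported here), and likeness to Nr3c1 was the Euclidean distance between the 4 log2 sums of depth-scaled pileup plus 1. Alternatives changed the q threshold, list length, window, overlap, start sites, scaling and motif settings. Chosen after seeing the data were one that kept only sites whose nearest TSS belonged to the gene and one that counted 2-fold differences on fold enrichment over the local background.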

Additional observations from a re-analysis of the deposited data

Results flagged for a closer look

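In the full lists the difference between genotypes in the number of sites with a peak (HY minus WT) had opposite signs on the 2 days. This held over all 7 genes and for 4 of them. Over all genes it was 13 at D0 and -2 at D8. For Nr3c1 it was 2 and -4, for Fkbp5 6 and -1, for Tsc22d3 2 and -1, and for Zbtb16 1 and -1. For Tsc22d3 the difference between days (D8 minus D0) also had opposite signs, 2 in WT and -1 in HY. With 1 library per group none of these differences was tested. The relative depth of the libraries was 1.00 (WT D0), 0.806 (WT D8), 1.07 (HY D0) and 0.750 (HY D8), while scaling by promoters open throughout put HY D8 (0.809) above WT D8 (0.781). Over all sites near protein-coding genes HY had more sites on both days, 57981 against 52476 at D0 and 36670 against 30849 at D8. With lists of equal length, more member sites over all 7 genes had a peak in WT only than in HY only on both days. The opposite signs were thus not kept there. The part of depth itself in the members' counts was not tested.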

How the results depend on the processing

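Of 76 recomputed shares 61 moved by less than their counting interval. The other 15 came from 3 choices. With peaks of −log10 q of at least 5 looked up in the full list of the other library, the WT shares were 19.8% (D8 only, all sites 7.93%) and 23.5% (D0 only, all sites 38.5%), the HY D0-only share 28.6% (all sites 33.8%), the D0 shares 11.0% (HY only, all sites 8.71%) and 2.50% (WT only, all sites 4.76%) and the D8 shares 7.46% (HY only, all sites 8.52%) and 7.69% (WT only, all sites 3.61%). With lists of equal length (41228 peaks) the D8-only shares were 44.7% (WT) and 44.8% (HY), the D0-only shares 18.4% and 19.4% and the D0 HY-only share 8.70%, where all sites gave 14.4% (WT only 19.6% and 13.1%). The palindrome share was 0% with at most 1 mismatch, 11.9% with at most 3 (all sites 10.5%) and 6.78% within 250 bp (all sites 3.83%), so the order against all sites turned in both. In the first 2 choices weak peaks are dropped by construction. Computed as fold enrichment, 96 of the pileup ratios moved by less than their counting interval, and 5 did not (Dusp1 21.4 kb upstream 0.587 and 1.22, the Zbtb16 promoter 1.14 and 1.57, the Hsd11b1 promoter in HY 1.26). Of 40 ratios between days at named sites 13 changed their side of 1 on that scale, none of them at least 2-fold in the depth-scaled pileup. The number of shared sites at least 2-fold higher at D8 was 1 in WT and 1 in HY, and of those lower 2 in HY. With only sites whose nearest TSS belonged to the gene, the D8-only share was 30.8% in WT (19.9% to 43.4%, all sites 12.2%) and 16.4% in HY (8.49% to 27.5%, all sites 13.6%), the latter not above all sites beyond counting error. No paired analysis was possible because each group had 1 library, so no comparison had 2 replicate pairs, and genotypes were not used as pairs. Depth limits the weak sites most, since a pileup under about 5 tags is not called.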
